A study of Danio rerio with 6 samples.

Results

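The genes described here are 6 members of the dual-specificity phosphatase family that act on MAP kinases, dusp1, dusp2, dusp4, dusp5, dusp6 and dusp7. They were chosen by name, as the rows of the deposited table whose symbol matches, and all 6 were found, 1 row each, among 21589 genes in the table and 22 rows with a dusp symbol. The choice was made with earlier results of these libraries in view, so their values in transgenic and wild-type livers are a description and carry no p-value. The livers came from zebrafish (Danio rerio) larvae at 7 days after fertilization. One group, of 3 libraries, carried a foxn3 transgene, foxn3 being a forkhead-box transcription factor gene, and the other, also of 3 libraries, was of wild-type siblings. The promoter of the transgene, the number of larvae per library and whether libraries came from separate clutches are not stated in the labels, so any spread between libraries may be technical.

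MAP kinases are switched on by phosphorylation of a threonine and a tyrosine in the same loop, and the MAP kinase phosphatases take both phosphates off again. Several of these phosphatase genes are themselves switched on by the kinases they act on, so that they serve as negative feedback and their transcripts are widely read as a sign of MAP kinase activity. In mammals the products of DUSP1, DUSP2, DUSP4 and DUSP5 sit in the nucleus and are made quickly after a stimulus, while those of DUSP6 and DUSP7 sit in the cytoplasm and act mainly on the kinase ERK. In mammalian liver they have been linked to growth factor signalling, to stress kinases and to glucose and lipid metabolism.

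Library totals were 7732478 counts (wild-type library 3) to 12550954 counts (transgenic library 2). The foxn3 gene had 246 to 322 counts per wild-type library and 1983 to 2540 per transgenic library, in the direction of the labels. Transcripts of hepatocyte products (12 of the 15 marker names fixed for this cell type were matched) made up 8.08 to 8.80% of wild-type and 7.69 to 9.05% of transgenic counts, and none was at 0 in any library. In all, 19573 genes passed the filter on low counts. Among them edgeR (quasi-likelihood test, Benjamini-Hochberg adjustment) called 0 genes in either direction at a threshold of 0.05, while DESeq2 called 1, which was higher. The edgeR test did not call foxn3 itself, at a log2 fold change of 2.74 ± 0.30 (SE) and an adjusted p of 0.11. A gene that was not called is thus not shown to be unchanged. An unadjusted p under 0.05 was reached by 170 higher and 271 lower genes in edgeR, together 2.25% of those tested.

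All 6 members passed the filter, with 865 counts in all in wild-type library 3 and up to 2584 in wild-type library 2. Each had a negative log2 fold change (transgenic minus wild type), with a median of -0.36 and a range from -1.20 to -0.08, where 49.4% of all genes tested were negative and the median of all genes was 0. By size of fold change, dusp1, dusp2 and dusp4, of the nuclear, rapidly induced kind in mammals, were at -0.58 or lower. dusp5, also of the nuclear kind, and dusp6 and dusp7, of the cytoplasmic kind, were within 0.14 of 0 on the log2 scale. Whether the values separate the members into classes was not tested. Intervals of 2 SE overlapped, but overlap cannot decide it, and the members share the same libraries. The intervals ran from -1.51 to -0.43 for dusp4 and from -1.04 to -0.12 for dusp1. For dusp6 the interval ran from -0.65 to 0.40, and for dusp7 from -0.57 to 0.30. The groups did not overlap for 1 member, dusp4, on the lower side, a pattern that 3.15% of all genes tested had, while 0 members were apart on the higher side, where 3.30% of all genes were. Nothing is read from these counts, since members were chosen with this contrast known.

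**Figure D1:**
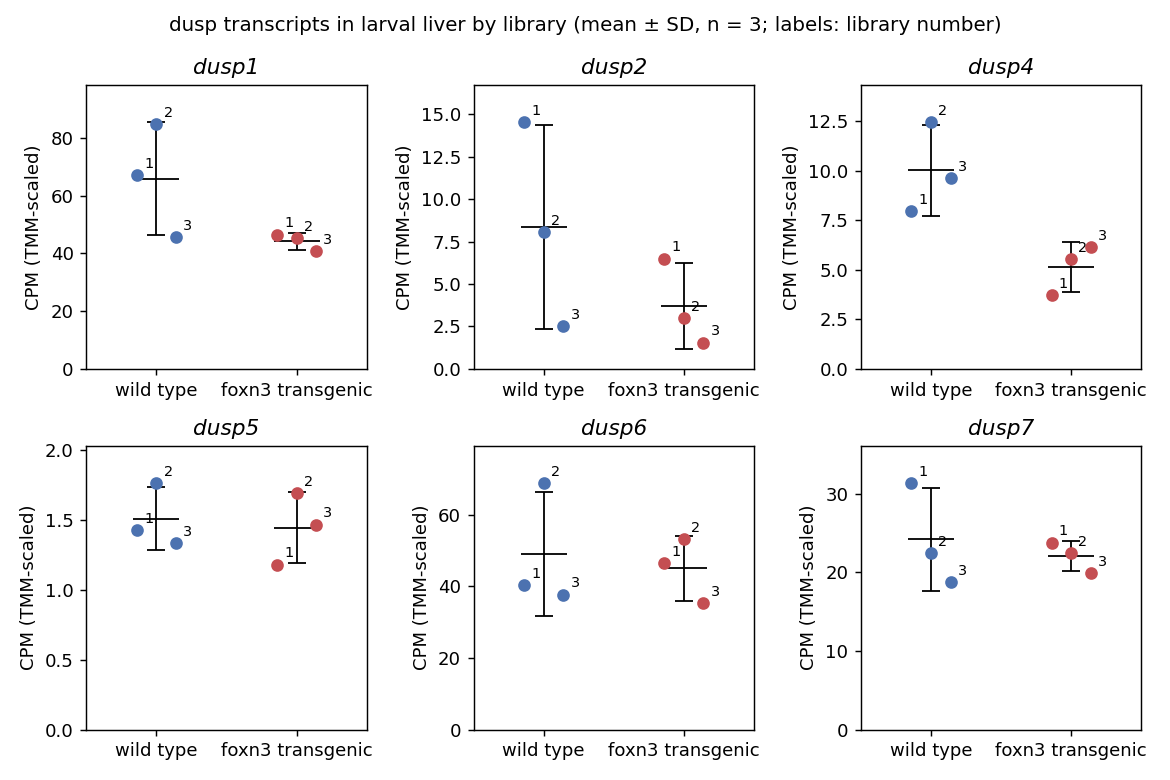
Normalized counts (CPM, counts relative to the TMM-scaled library total) of the 6 dusp genes in each library, with blue points for wild-type and red points for foxn3-transgenic livers, numbered by library, and bars for the mean ± SD of 3 libraries. For dusp4 every transgenic point lies below every wild-type point, while for dusp1 and dusp2 wild-type library 3 lies among the transgenic libraries.

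dusp4 (ENSDARG00000044688, chromosome 21, 18941344 to 18948418, minus strand, Zv9) encodes a nuclear phosphatase that in mammals acts on ERK and JNK. In the order of libraries 1 to 3, wild-type livers had 7.94, 12.4 and 9.62 CPM and transgenic livers had 3.71, 5.54 and 6.13 CPM. The highest transgenic library thus lay below the lowest wild-type library. The wild-type mean of 10.003 ± 2.28 CPM compared with a transgenic mean of 5.13 ± 1.26 CPM (SD, n = 3 each), and the fold change on the log2 scale was -0.97 ± 0.27 (SE). It stayed between -1.11 and -0.77 with each library left out in turn. The groups were also apart in FPKM. Leaving out a library cannot by itself make separated groups overlap, so nothing is read from their separation in those 6 fits. The counts behind these values were small, 44 to 162 per library.

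dusp1 (ENSDARG00000007628, chromosome 14, 19660236 to 19663656, minus strand) encodes the best known member, which in mammals prefers p38 and JNK and is induced by stress and by glucocorticoids. Wild-type libraries 1 to 3 held 67.2, 84.9 and 45.7 CPM, and transgenic libraries 1 to 3 held 46.5, 45.3 and 40.8 CPM. Wild-type libraries 1 and 2 stood above the rest, and wild-type library 3 fell between transgenic libraries 1 and 2. The transgenic values lay close together, with a coefficient of variation of 6.88% against 29.8% in wild type. In deposited FPKM it was 11.7% against 34.0%, so the closeness depends in part on the scaling. The difference between groups was not tested. The group means were 66.0 ± 19.6 CPM (wild type) and 44.2 ± 3.04 CPM (transgenic; SD, n = 3 each), and the fold change was -0.58 ± 0.23 on the log2 scale (SE). That value was -0.35 without wild-type library 2 and -0.78 without wild-type library 3. Without the latter, the only wild-type library among the transgenic ones, the groups no longer overlapped. In that fit 7.82% of all genes tested were apart on the lower side, and nothing is read from this separation.

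dusp2 (ENSDARG00000036572, chromosome 8, 42272845 to 42276824, minus strand), known in mammals as a phosphatase of activated immune cells, varied most. It reached 14.5, 8.07 and 2.54 CPM in wild-type libraries 1 to 3, while transgenic libraries 1 to 3 reached 6.49, 3.01 and 1.55 CPM. Wild-type libraries 1 and 2 stood above every transgenic library, and wild-type library 3 lay between transgenic libraries 2 and 3, so the groups overlapped. The highest library stood 9.35-fold above the lowest, against 1.5-fold for dusp5. Wild-type livers averaged 8.38 ± 6.0 CPM and transgenic livers 3.68 ± 2.54 CPM (SD, n = 3 each), a log2 difference of -1.20 ± 0.61 (SE). Although it had the lowest fold change of the 6 members, its interval of 2 SE ran from -2.41 to 0.02. Without wild-type library 1 the fold change was -0.56, and without transgenic library 1 it was -1.90. For this gene the authors' deposited table also lists an exon at chromosome 8, 42274592 to 42274728, with an exon log2 ratio of 1.06 and a score of 0, where a score of 0 stands for an adjusted p of 1. For the other 5 members the authors' deposited table gives an exon log2 ratio of 0, a score of 0 and no exon position. That ratio of 0 may thus not be a measured value.

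Leukocyte transcripts were scarce in all libraries. The 18 leukocyte marker genes in the table, which include ptprc and lcp1, together took 0.00517 to 0.00861% of the counts of wild-type and 0.00534 to 0.00898% of transgenic libraries, with none at 0. In bulk liver, fewer cells of a type and less RNA per cell cannot be told apart. Wild-type library 3 and transgenic library 2, which were low for dusp2, also had the lowest leukocyte shares, at 0.00517 and 0.00534%, while transgenic library 3, the lowest for dusp2, had 0.00731%. The part of leukocytes in the dusp2 values was not tested.

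dusp5 (ENSDARG00000019307, chromosome 22, 32601000 to 32612547, minus strand), whose mammalian counterpart is a nuclear phosphatase specific to ERK, was the scarcest member, with 10 to 23 counts per library. Levels were 1.43, 1.77 and 1.34 CPM for wild-type libraries 1 to 3, against 1.18, 1.69 and 1.47 CPM for transgenic libraries 1 to 3. The groups overlapped almost wholly. On the log2 scale the fold change was -0.08 ± 0.33 (SE), with an interval of 2 SE from -0.75 to 0.59, so that at this depth a moderate change in either direction was not detectable.

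dusp6 (ENSDARG00000070914, chromosome 25, 18813587 to 18817793, minus strand) encodes the cytoplasmic ERK phosphatase used in zebrafish embryos as a readout of fibroblast growth factor signalling. Wild-type livers had 40.3, 68.9 and 37.7 CPM (libraries 1 to 3), and transgenic livers had 46.4, 53.3 and 35.4 CPM (libraries 1 to 3). Wild-type library 2 stood alone at the top, and the other wild-type libraries lay within the range of the transgenic ones. The group means were 49.0 ± 17.3 CPM (wild type) and 45.01 ± 9.0 CPM (transgenic; SD, n = 3 each), and their log2 fold change of -0.12 ± 0.26 (SE) had an interval of 2 SE from -0.65 to 0.40. Without wild-type library 2 it turned to 0.21.

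dusp7 (ENSDARG00000032738, chromosome 11, 21926 to 37339, plus strand), the close relative of dusp6, had 31.4, 22.4 and 18.7 CPM across wild-type libraries 1 to 3, and transgenic libraries 1 to 3 had 23.8, 22.4 and 19.9 CPM. All 3 transgenic libraries fell inside the wild-type range. Its log2 fold change of -0.14 ± 0.22 (SE) had an interval of 2 SE from -0.57 to 0.30, and it was 0.10 without wild-type library 1.

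In the authors' deposited table the log2 ratio (transgenic over wild type) was -0.72 for dusp4, -0.62 for dusp2 and -0.47 for dusp1. The authors' deposited table lists -0.11 for dusp7, -0.10 for dusp6 and -0.04 for dusp5. Each member has a negative sign there too, and each size is smaller than in the fit made here, where DESeq2 gave -0.97 for dusp4, -1.19 for dusp2 and -0.58 for dusp1. The reason was not tested. None of the 6 genes overlaps another gene of the table in position on either strand. How reads matching more than one dusp gene were assigned was not tested.

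**Figure D2:**
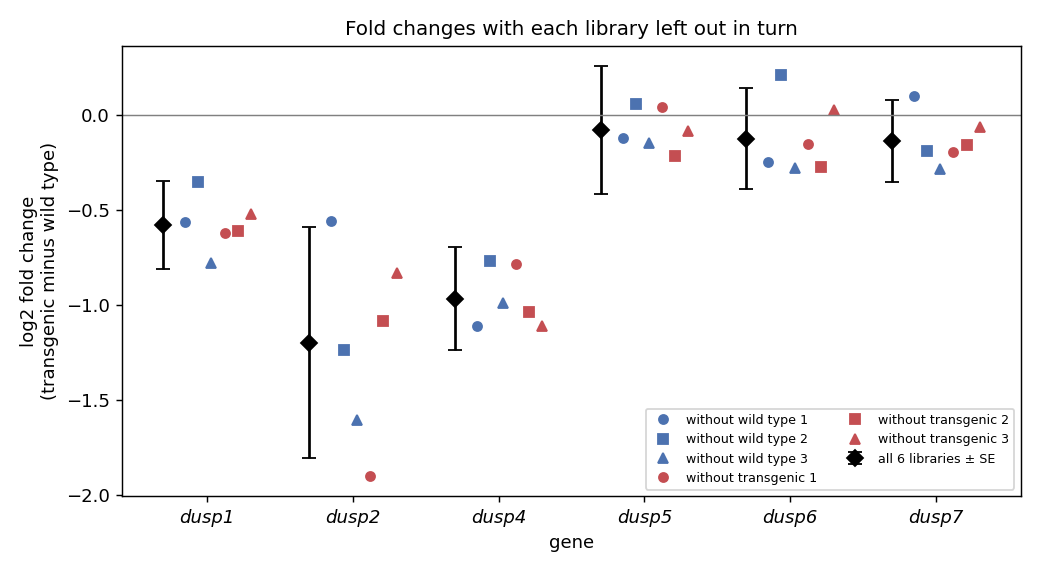
Log2 fold change (transgenic minus wild type) of each dusp gene from all 6 libraries (black diamonds, ± SE) and with each library left out in turn (blue for a wild-type and red for a transgenic library left out). dusp4 stays between -1.11 and -0.77, dusp2 spreads from -1.90 to -0.56, and dusp5, dusp6 and dusp7 cross 0.

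All 6 members were highest in a wild-type library, 4 of them in wild-type library 2 and 2, dusp2 and dusp7, in wild-type library 1. The share of all genes with this pattern was not computed, so nothing is read from this count. Both libraries were not above the rest for every member. For dusp6, wild-type library 1 at 40.3 CPM lay below transgenic libraries 1 and 2, at 46.4 and 53.3 CPM. The 6 genes together summed to 163, 199 and 116 CPM for wild-type libraries 1 to 3, and for transgenic libraries 1 to 3 the sums were 128, 131 and 105 CPM. Wild-type library 3 lay within the transgenic range of the sum, and the group means were 159 ± 41.6 and 122 ± 14.2 CPM (SD, n = 3 each). Wild-type library 2 also held the largest summed share of counts for some marker lists of other cell types. The 15 stellate cell and fibroblast genes took 0.0673% of its counts, against 0.021 and 0.0287% in the other wild-type and 0.0255 to 0.0368% in transgenic libraries. The 13 bile duct genes took 0.396% there, with 0.239 and 0.255% in the other wild-type and 0.245 to 0.289% in transgenic libraries. Genes of this list differed. The keratin gene krt4 had 16362 counts there, against 3619 in wild-type library 1 and 2495 in wild-type library 3. In contrast, sox9b had 80 counts there and 96 in wild-type library 1, so the sum is not a measure of bile duct cells alone. For 6 intestine genes the share was 0.159%, with 0.045 and 0.047% in the other wild-type and 0.0503 to 0.0635% in transgenic libraries. The 20 endothelial genes, in contrast, stayed between 0.0406 and 0.0472% in all libraries. Exocrine pancreas genes, of which 17 of 17 had positive fold changes, took 0.354 to 0.798% in wild-type and 0.541 to 1.24% in transgenic libraries. No gene of these lists was at 0 in any library. The part of these cells in the dusp values was not tested. Without wild-type library 2, dusp4 was at -0.77, dusp1 at -0.35 and dusp2 at -1.24 on the log2 scale.

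Levels of the members were compared per exon length, as deposited FPKM (counts relative to exon length and to the reads mapped to genes). The order of the mean over 6 libraries was dusp1 at 20.3 ± 7.34, dusp6 at 15.8 ± 4.59, dusp7 at 6.95 ± 1.55, dusp4 at 4.2 ± 1.89, dusp2 at 2.86 ± 2.37 and dusp5 at 0.970 ± 0.152 FPKM (SD, n = 6). dusp1 and dusp6 thus had the highest levels of the 6 in these livers. The mean FPKM of dusp1 was above that of 88.7% of the genes in the table and that of dusp6 above 86.0%. dusp5 stood above 23.2%.

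Some neighbours in that order could not be separated. The FPKM of dusp1 exceeded that of dusp6 by 0.33 ± 0.33 on the log2 scale (SD, n = 6), with the order turned in transgenic library 2. dusp6 exceeded dusp7 by 1.17 ± 0.42 and did so in 6 of 6 libraries, the one neighbouring pair among the 5 with the same order throughout. dusp7 exceeded dusp4 by 0.82 ± 0.69, in 5 of 6 libraries and not in wild-type library 2. dusp4 exceeded dusp2 by 0.87 ± 1.26, in 4 of 6 libraries, a mean difference smaller than its spread. dusp2 exceeded dusp5 by 1.14 ± 1.22, in 5 of 6 libraries and not in transgenic library 3, where dusp2 was at 0.766 FPKM. The share of the summed FPKM of the 6 genes that came from dusp4 was 7.34, 9.43 and 12.5% for wild-type libraries 1 to 3, against 4.48, 6.53 and 8.92% for transgenic libraries 1 to 3. dusp6 took 22.8, 31.9 and 30.0% of the sum in the wild-type livers and 34.3, 38.4 and 31.5% in the transgenic ones.

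**Figure D3:**
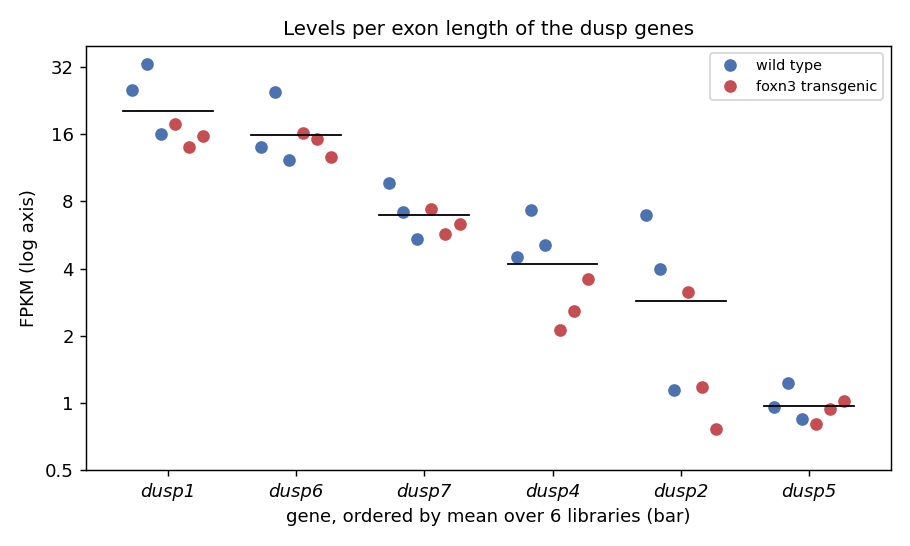
FPKM of the 6 dusp genes on a log axis, one point per library (blue wild type, red foxn3 transgenic), ordered by the mean over 6 libraries, which the black bar marks. dusp1 at 20.3 and dusp6 at 15.8 FPKM lead and overlap each other, and dusp5 is lowest at 0.970 FPKM.

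Across the 6 libraries the members did not follow one pattern. Over the 15 pairs of members, Pearson's r of log2 CPM ran from -0.10 to 0.86 with a median of 0.47, and 12 pairs were above 0. The 6 points span both genotypes, so each r mixes the difference between groups with the spread within them, and these values are a description. dusp2 and dusp7 were most alike (r = 0.86, Spearman's rho = 0.77), followed by dusp1 and dusp2 (r = 0.78, rho = 0.89). dusp4 and dusp7 were least alike (r = -0.10, rho = -0.43). dusp6 and dusp7, the cytoplasmic pair, had r = 0.10 and rho = 0.37.

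The genes whose log2 CPM was most like that of a member over the 6 libraries were sought among genes with a mean of at least 10 CPM, 8330 or 8331 in number for each member. For dusp1 they were arrdc3b (r = 0.98, rho = 0.83) and mycb (r = 0.97, rho = 0.83), a zebrafish MYC gene. For dusp2 they were zgc:113263 (r = 0.997, rho = 1) and IRS2, the insulin receptor substrate gene (r = 0.99, rho = 0.94). For dusp4 they were the row named chromosome 5 open reading frame 28 (r = 0.99, rho = 1) and cdc14b, a phosphatase gene (r = 0.99, rho = 1). For dusp5 they were CCDC109A and pdxdc1 (r = 0.98 each), for dusp6 CABZ01009157.1 (r = 0.99) and CR848784.2 (r = 0.97), and for dusp7 C14orf43 and ch211-210c8.7 (r = 0.99 each). The genes named were picked as the highest of many, from only 6 points each. Of 8330 genes, 28 exceeded an r of 0.9 with dusp1 and 98 of 8330 did with dusp7. The median pattern of the 6 members, was 0.25, 0.63 and -0.25 for wild-type libraries 1 to 3, and -0.08, -0.13 and -0.28 for transgenic libraries 1 to 3 (log2, each gene relative to its mean). It was most like tbc1d15, PREX2, dkey-45k15.1, ACE and mark2, with r between 0.97 and 0.98.

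The wider MAP kinase pathway and genes related to it were described with 7 lists, 182 genes tested in all without the members. 105 had negative and 77 positive fold changes, with a median of -0.06 on the log2 scale. edgeR (quasi-likelihood test, Benjamini-Hochberg adjustment) called 0 of them, and so did DESeq2 and limma-voom. An unadjusted p under 0.05 in edgeR was found for 5 lower genes and 1 higher gene. Together these were 3.30% of the 182, against 2.25% of all genes tested (1.38% lower and 0.869% higher). The lists were chosen with earlier results of these data known, so nothing is read from these counts, here or for single lists. Every gene named from these lists had an adjusted p of 1.

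Of 15 other genes of the dual-specificity phosphatase family tested, 6 had negative and 9 positive fold changes, with a median of 0.02. This list reaches beyond MAP kinase phosphatases, with ssh1a, ssh1b, SSH3, STYX and dusp11 among its genes, so its median is not theirs alone. The 3 of smallest p were DUSP3, an atypical family member without the kinase-binding domain of the MAP kinase phosphatases, at -0.65 ± 0.28 (SE), one of the DUSP8 rows (ENSDARG00000009299) at -0.35 ± 0.22 and DUSP28 at 0.55 ± 0.36. The CPM of DUSP3 was 8.62 ± 2.82 (wild type) and 5.43 ± 0.969 (transgenic; SD, n = 3 each), and the groups overlapped. With single libraries left out DUSP3 ran from -0.83 to -0.37, this DUSP8 row from -0.50 to -0.13 and DUSP28 from 0.36 to 0.82. The values nearest 0 came without wild-type library 3, wild-type library 2 and transgenic library 2, in that order. The other DUSP8 row (ENSDARG00000039232) was at -0.14 ± 0.32. DUSP16 and DUSP10, which in mammals act on p38 and JNK, were at 0.31 ± 0.23 and 0.18 ± 0.49. Among 12 genes of other phosphatases of MAP kinases, regulatory subunits included, 5 were negative and 7 positive, with a median of 0.04. The tyrosine phosphatase gene ptpn5 was at -1.04 ± 0.40, with 26.5 CPM in wild-type library 3, 9.30 and 9.72 in the other wild-type and 5.64 to 8.52 in transgenic libraries. Its fold change ran from -1.30 to -0.39 without single libraries, the latter without wild-type library 3. The phosphatase gene ppm1ab and PPP2R2A, the gene of a regulatory phosphatase subunit, were the others of smallest p. They were at 0.28 ± 0.30 and 0.15 ± 0.21.

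Other targets and feedback inhibitors of ERK had 15 negative and 7 positive values among 22 genes, with a median of -0.09 that turned to 0.07 without wild-type library 2 and was -0.17 without wild-type library 1. ERRFI1 (ENSDARG00000086098), which encodes an inhibitor of the epidermal growth factor receptor, was at -0.98 ± 0.46 (SE), spry4 at -0.38 ± 0.27 and spry1 at 0.54 ± 0.41, the last 2 being sprouty inhibitors of growth factor signalling. A second ERRFI1 row (ENSDARG00000070171), far more abundant, was at -0.31 ± 0.40 (SE). Its mean was 215 ± 83.4 CPM in wild-type and 174 ± 89.5 CPM in transgenic livers (SD, n = 3 each). The first ERRFI1 row ran from -1.32 to -0.63 without single libraries, the latter without transgenic library 3. spry4 ran from -0.70 to -0.16 without single transgenic or wild-type libraries. spry1 was at 0.29 without wild-type library 3, or 0.31 when transgenic library 1 was left out, and at 0.77 without wild-type library 1. The ETS factor genes etv5a and etv5b, which respond to ERK together with dusp6 in zebrafish embryos, were at -0.06 ± 0.20 and -0.04 ± 0.20.

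The list of immediate early and related stimulus-responsive genes, most of them transcription factor genes but also including mcl1a, mcl1b, btg1, btg2 and SIK1, had 26 negative and 8 positive values among 34 genes, with a median of -0.22. The fold change of egr1 was -1.31 ± 0.30 on the log2 scale. The row FOS (ENSDARG00000040135) was at -0.69 ± 0.34 and EGR4 at -0.92 ± 0.49. Another row, fos (ENSDARG00000031683), was at -0.99 ± 0.67 (SE). Its mean was 9.82 ± 7.76 CPM in wild-type and 5.02 ± 3.40 CPM in transgenic livers (SD, n = 3 each). Without single libraries egr1 ran from -1.55 to -1.06, the row FOS from -0.94 to -0.35 and EGR4 from -1.15 to -0.49. For FOS and EGR4 the value nearest 0 came without wild-type library 3. The groups did not overlap for 2 of the 34 genes, egr1 and EGR4, both lower, where 3.15% of all genes tested were apart on the lower side. Leaving out single libraries moved the median of this list between -0.46 and -0.10.

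The median values of the kinase lists lay near 0. In the Ras, Raf, MEK and ERK cascade 16 of 41 genes were negative and 25 positive, with a median of 0.04. The ERK gene mapk3 was at 0.01 ± 0.16 (SE), with 51.9 ± 2.68 CPM in wild-type livers. The 3 genes of smallest p were RPS6KA2, srf and SHC1. The ribosomal S6 kinase gene RPS6KA2 was at -0.85 ± 0.35. The gene srf, which encodes the serum response factor, was at 0.52 ± 0.22 and the adaptor gene SHC1 at 0.34 ± 0.16. Leaving out single libraries gave -0.96 to -0.68 for RPS6KA2, 0.38 to 0.70 for srf and 0.31 to 0.37 for SHC1. A second srf row (SRF, ENSDARG00000038131) was at 0.32 ± 0.32. In the p38 and JNK cascades 17 of 28 were negative and 11 positive, with a median of -0.09. gadd45ab, a stress gene whose mammalian relatives activate the p38 and JNK pathways, was at -1.22 ± 0.37, gadd45ba at -0.92 ± 0.49 and map3k5 at -0.40 ± 0.21. gadd45ab had 56.5 CPM in wild-type library 2, 21.8 and 21.3 in the other wild-type and 12.1 to 17.1 in transgenic libraries, and without wild-type library 2 it was at -0.58, gadd45ba at -0.23 and map3k5 at -0.23. Without transgenic library 1 gadd45ba was at -1.42. The lowest such values were -1.45 for gadd45ab, without wild-type library 3, and -0.57 for map3k5, without transgenic library 2. Among 30 receptors and ligands 20 were negative and 10 positive, with a median of -0.07. The fibroblast growth factor receptor genes fgfr1b and fgfr4 were at -0.69 ± 0.35 and -0.55 ± 0.29, and igf1rb, a receptor gene of insulin-like growth factors, at -0.38 ± 0.22. fgfr4, with 70.3 CPM in wild-type library 2, was at -0.17 without that library and at -0.76 without wild-type library 1. fgfr1b ran from -0.86 to -0.39, the latter without wild-type library 1. igf1rb ran from -0.47 to -0.25, the latter without transgenic library 2.

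**Figure D4:**
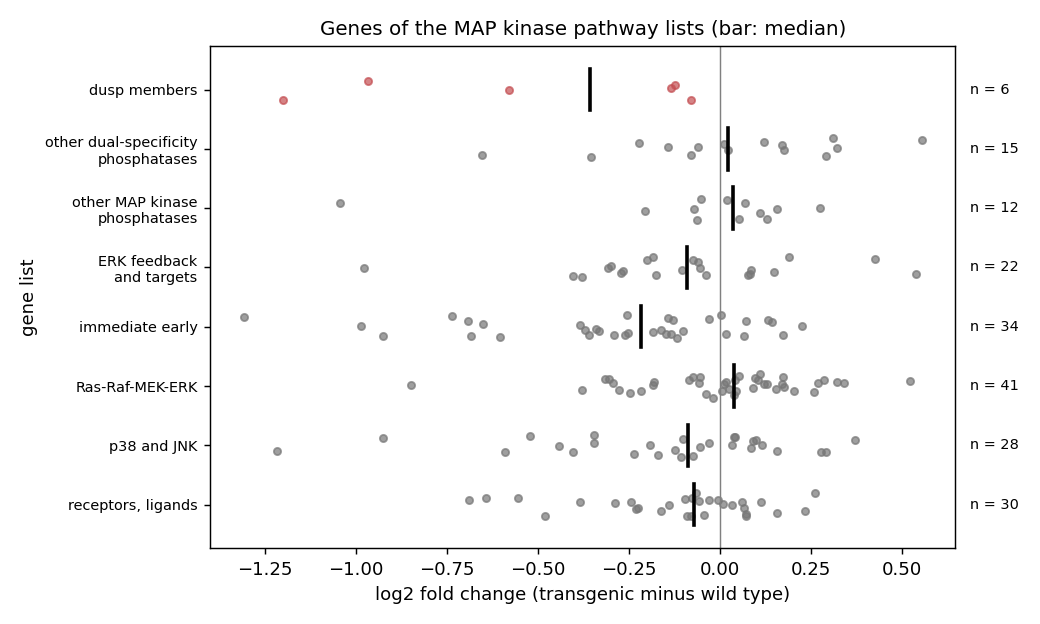
Log2 fold change (transgenic minus wild type) of each of the 6 dusp genes described here (red) and each gene tested in 7 lists (grey). The lists hold MAP kinase pathway genes and genes related to them. The number of genes is on the right and the median is a black bar. The medians are -0.36 for the 6 dusp genes and -0.22 for immediate early genes, and between -0.09 and 0.04 for the other lists.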

How the data were processed

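The 6 libraries were made from total RNA with a stranded kit and sequenced from one end to 50 bp, per the labels. Reads were aligned with Novoalign to Zv9, and DESeq2 was used, per the submitters' processing notes. The authors deposited raw counts of alignments overlapping each gene, and FPKM that the authors scaled to exon length and library total, per the file headers. The deposited log2 ratios and regularized log2 values are DESeq2's, and the deposited scores are 10 times the negative log10 of an adjusted p, per the file headers. The regularized values were not used. No source used here says whether counting used strand.

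Counts were fitted in R 4.3.3 with edgeR 4.0.16: TMM scaling, filterByExpr by group, glmQLFit and glmQLFTest without covariates, and Benjamini-Hochberg adjustment over 19573 genes. Standard errors are the fold change over the root of the F statistic. CPM is relative to the TMM-scaled total, and log2 CPM used a prior count of 2. The TMM factor was 0.848 for transgenic library 2 and 0.967 to 1.07 for the others. DESeq2 1.42.0 and limma 3.58.1 (voom) were alternatives. The code was tested on simulated data. Chi-square values per gene between libraries of a group were 19.2 to 33.8, so no library was a duplicate of another in its group. Libraries of different groups were not compared in this way. Library totals of 7732478 to 12550954 counts limit the precision of scarce genes.

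Members and gene lists were chosen with earlier results of these data known. Named genes were the members, the 3 genes of smallest p in each list and the genes most alike in pattern (2 per member, 5 for the median pattern). DUSP10, DUSP16, etv5a, etv5b, mapk3, krt4, sox9b and the second rows of ERRFI1, DUSP8, fos and srf were named in addition, after their values were seen. No sequences are printed. List names were matched to table symbols or, failing that, to a reference table of gene IDs, and unmatched names were not analysed here.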

Additional observations from a re-analysis of the deposited data

How the results depend on the processing

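Each member's fold change was refitted under 12 alternatives: RLE scaling, library totals only, DESeq2, limma-voom, no filter on low counts, the replicate block and each of 6 libraries left out. All 72 values moved by less than the spread between libraries. The alternatives refit the same counts, and leaving out 1 of 3 libraries can move a group mean only so far. Little is therefore read from that. Of the 72 values, 67 kept their sign. The exceptions were dusp5 (0.06 without wild-type library 2, or 0.04 when transgenic library 1 was left out), dusp6 (0.21 without wild-type library 2, or 0.03 when transgenic library 3 was left out) and dusp7 (0.10 without wild-type library 1). The median of the members ran from -0.53 to -0.27 without single libraries and from -0.43 to -0.32 otherwise.

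Members whose groups did not overlap numbered 1 to 3 without single libraries, with 3 (dusp1, dusp2 and dusp4) without wild-type library 3 and 2 (dusp1 and dusp4) without transgenic library 1 or 2. With 5 libraries 6.20 to 9.15% of all genes tested were so on the lower side. Leaving out a library can by itself only take overlap away, so nothing is read from these numbers of members. The number of genes called higher over the whole table was 0 in the reported fit and 0 to 1 without single libraries, and it was 1 with DESeq2 and 1 with the replicate block, foxn3 each time. None was called lower under any alternative. Genes at an unadjusted p under 0.05 numbered 441, and 238 to 801 without single libraries. Without single libraries the list medians ran from -0.05 to 0.11 for other dual-specificity phosphatases, -0.05 to 0.07 for other MAP kinase phosphatases, -0.17 to 0.07 for ERK feedback, -0.003 to 0.10 for the ERK cascade, -0.14 to -0.04 for p38 and JNK and -0.11 to -0.03 for receptors, so the sign of the first 4 turned with 1 library. Whether shared replicate numbers pair the libraries is not stated, and so few libraries cannot decide it. Deviations from the group means correlated at 0.34, -0.11 and 0.16 for numbers 1, 2 and 3, and at -0.33 to 0.19 for unlike numbers. With the replicate block 637 genes had an unadjusted p under 0.05 in edgeR, and dusp4 was at -0.97.

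In CPM, not per length, dusp7 exceeded dusp4 by 1.70 on the log2 scale, as the longer gene collects more reads. For likeness to the median pattern, r without single libraries ran from 0.92 to 0.99 for tbc1d15, 0.95 to 0.99 for PREX2, 0.95 to 0.99 for dkey-45k15.1, 0.85 to 0.99 for ACE and 0.94 to 0.98 for mark2. With library totals only it was 0.96 for PREX2 and 0.94 for mark2, and for zgc:113263 with dusp2 it was 0.85. That setting differs from the reported one only in leaving out TMM scaling, so these values of r depend on the scaling. Which library's factor moved them was not tested. For dusp5, at 10 to 23 counts per library, depth limits what can be seen.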
